A study of Mus musculus with 4 samples.

Results

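The genes for the nuclear-encoded parts of the mitochondrial respiratory chain were followed in mouse embryonic stem cells (mESC) with and without B-type lamins. Members were the rows of the count table whose gene ID carries, in GENCODE M21, a protein-coding symbol beginning with Nduf, Uqcr, Atp5 or Cox4 to Cox8, or the symbol Sdha, Sdhb, Sdhc or Sdhd. The rule found 93 members among 37991 rows, spread over 19 chromosomes. They comprised 36 subunits of complex I, 8 assembly factors of complex I (the Ndufaf genes), 4 subunits of complex II, 8 of complex III, 20 genes of complex IV and 16 of complex V. Atp5s, which is not a subunit, made up the remainder. Ndufa4 was counted with complex IV, where its protein resides despite its name, together with its paralogue Ndufa4l2. The paralogue Cox7a2l, a factor of respiratory supercomplexes, was kept with complex IV by its symbol.

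The respiratory chain passes electrons from nutrients to oxygen at the inner mitochondrial membrane. Complex I takes them from NADH and complex II from succinate, complex III hands them to cytochrome c, and complex IV reduces oxygen. The proton gradient made by complexes I, III and IV drives ATP synthesis in complex V, and most subunits are encoded in the nucleus while a core set comes from mitochondrial DNA. Mouse embryonic stem cells are known to use both glycolysis and this pathway.

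RNA sequencing was done on cells null for the B-type lamins Lmnb1 and Lmnb2, labelled dKO, and on wild-type (wt) cells, with 2 biological replicates of each genotype. B-type lamins are filament proteins that line the inner face of the nuclear envelope. The strain label ZHBTc4, known as an mESC line whose Pou5f1 comes from a tetracycline-repressible transgene, was given to all 4 libraries, and each genotype may be 1 line, so loss of lamins and a difference between lines cannot be told apart. Libraries were made with Illumina TruSeq chemistry from total RNA extracted with Trizol, and no further treatment or age was labelled.

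Total counts per library were 16697970 and 16584014 in dKO cells and 12899964 and 14941952 in wt cells. The targeted genes followed their labels, with 69 and 101 counts of Lmnb1 in dKO libraries against 8538 and 8321 in wt libraries, and 41 and 55 counts of Lmnb2 against 1343 and 1787. Of 5 markers of embryonic stem cells all were expressed, and their summed level was 3993 and 4465 CPM (counts scaled to library size, with TMM factors) in dKO cells against 3167 and 3317 CPM in wt cells. Most of that difference lay in Zfp42, with means of 1442 CPM in dKO cells and 640 CPM in wt cells, while Pou5f1, Sox2 and Nanog had log2 fold changes of -0.01, 0.06 and -0.04. Summed levels were 4.73 and 5.31 against 6.02 and 8.41 CPM for 5 fibroblast markers, and 80.0 and 74.1 against 68.5 and 69.4 CPM for 3 markers of male germ cells. The germ cell markers differed in direction, with log2 fold changes of 0.62 for Ddx4, 0.35 for Sycp3 and -0.62 for Dazl. For 4 markers of primitive endoderm the summed level was 20.6 ± 4.87 CPM in dKO cells and 11.0 ± 4.63 CPM in wt cells (SD, n = 2 each). In bulk RNA, fewer cells of a type and less RNA per cell cannot be told apart, and the part of other cell types in the results was not tested.

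Respiratory chain genes were expressed at high levels in both genotypes. Among tested protein-coding genes the members had a median of 70.4 CPM per kb of transcript, against 7.94 for all 13022 such genes, and their transcripts were short, with a median of 926 bases against 3186. Before scaling by length the median was 64.2 CPM for the members and 24.7 CPM for all such genes. The highest level per kb belonged to the head of complex V. Atp5b, the catalytic beta subunit of ATP synthase, stood at 1342 ± 24.3 CPM per kb in dKO cells and 1345 ± 48.4 in wt cells (SD, n = 2 each). Atp5a1, the alpha subunit of the same head, reached 518 ± 17.3 CPM per kb in dKO cells and 515 ± 28.1 in wt cells. Cox4i1, the largest nuclear subunit of complex IV, stood at 496 ± 45.6 CPM per kb in dKO cells and 565 ± 18.9 in wt cells, and its libraries overlapped those of Atp5a1 in dKO cells. Cox8a and Cox6a1 came next, at means over all libraries of 341 and 331 CPM per kb, which did not differ beyond their spread.

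Complex I subunits reached at most 212 ± 6.62 CPM per kb in dKO cells and 216 ± 6.54 in wt cells, for the accessory subunit Ndufa7. The highest of complex III was Uqcr10, a small subunit, at 206 ± 29.5 CPM per kb in dKO cells and 213 ± 19.7 in wt cells, which overlapped Ndufa7. In complex II the flavoprotein gene Sdha led with 120 ± 5.10 CPM per kb in dKO cells and 108 ± 5.33 in wt cells. The assembly factors ran from Ndufaf7 at 7.73 ± 0.08 CPM per kb in dKO cells and 7.41 ± 0.31 in wt cells up to Ndufaf2 at 32.4 ± 1.35 and 27.2 ± 4.37. The lowest tested members were Ndufa4l2 at 1.47 ± 1.08 CPM per kb in dKO cells and 2.02 ± 1.17 in wt cells, Ndufb2 at 2.65 ± 0.50 and 2.68 ± 0.36, and Atp5g1 at 3.96 ± 0.50 and 4.01 ± 0.10. Ndufb2 and Atp5g1 were divided by long annotated transcripts of 4.37 and 4.72 kb, which lowers their values on this scale. With the union of exons as the length, 6 of the 10 highest members stayed among the 10 highest.

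**Figure D1:**
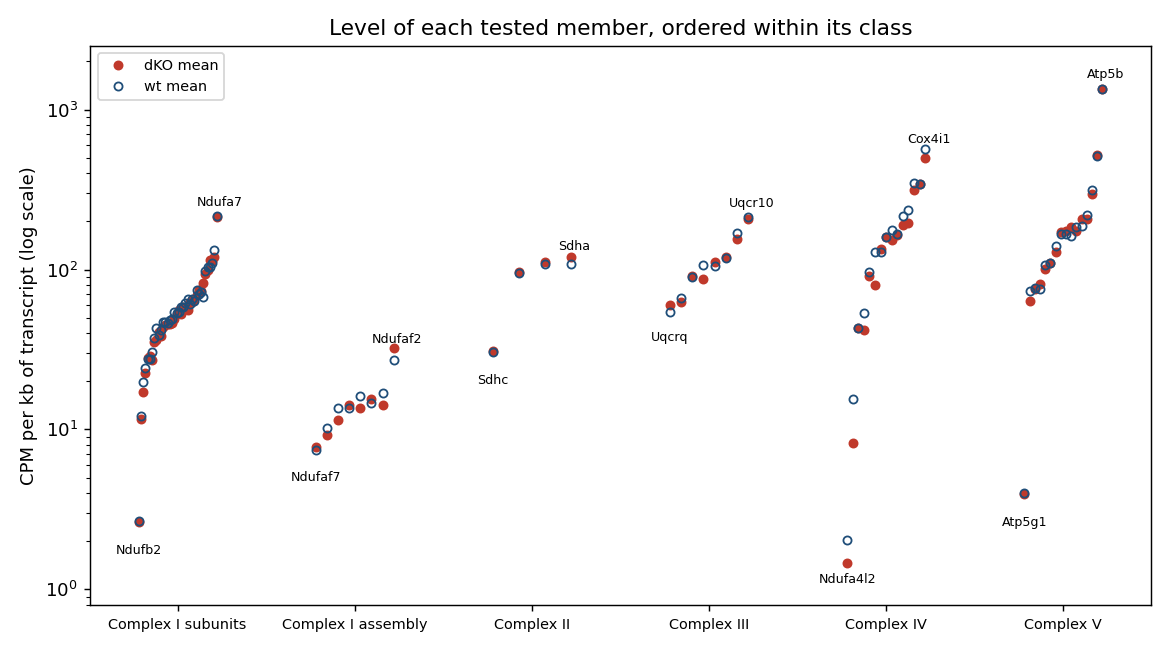
Level of each tested member of complexes I to V and of the complex I assembly factors, as mean CPM per kb of transcript on a log axis, in dKO (filled) and wt cells (open), ordered within each class (n = 2 libraries each). The filled and open points of most genes coincide, and levels run from 1.47 CPM per kb for Ndufa4l2 in dKO cells to 1345 for Atp5b in wt cells.

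Setting dKO against wt cells asked whether these transcripts differ in level without B-type lamins. No member passed the test. Of the 93 members, 88 passed the filter on low counts, and 0 of the 88 reached an adjusted p under 0.05 in edgeR's quasi-likelihood test over 14027 genes, where 12 genes did (0.0855%). DESeq2 and limma-voom also called 0 members. At an unadjusted p under 0.05 there were 2 members, Cox7a1 and Cox7a2, against 782 of all tested genes (5.57%). Both were lower in dKO cells, a direction that 2.71% of tested genes shared at this p. With the replicate number as a block, Cox7a1 and Cox7a2 were the 2 members called, where 9.26% of tested genes were. The smallest adjusted p of any member was 0.575.

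Fold changes of the members were small. Their median log2 fold change was -0.04, against -0.0019 over all tested genes, with 34 positive and 54 negative values where 50.3% of all tested genes were negative. Without wt replicate 1 the members' median was 0.01. Only 4 of 88 members (4.55%) differed by more than 0.3 on the log2 scale in either direction, against 27.9% of tested genes. The 95% interval of the fold change lay within 0.5 log2 units of no change for 59 of 88 members, against 26.3% of tested genes, and within 1 log2 unit for 85 of 88, against 65.5%. High counts narrow these intervals and lessen the scatter of the fold changes, and the members had more counts than most genes. Their median SE was 0.135, against 0.212 over all tested genes, and genes of like level were not compared. Both dKO libraries were below both wt libraries for 27 members, where 16.4% of tested genes were, and above both for 9 members, where 17.2% were.

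The summed level of all 93 members was 11117 and 11477 CPM in dKO replicates 1 and 2, against 11801 and 11250 CPM in wt replicates 1 and 2. The genotypes overlapped, and an exact two-sided permutation test over the 4 libraries gave p = 0.667, where the smallest p this design allows is 0.333. Atp5b and Atp5a1 weighed most in this sum and in that of complex V. Their means were 2571 and 1385 CPM in dKO cells and 2577 and 1378 CPM in wt cells.

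**Figure D2:**
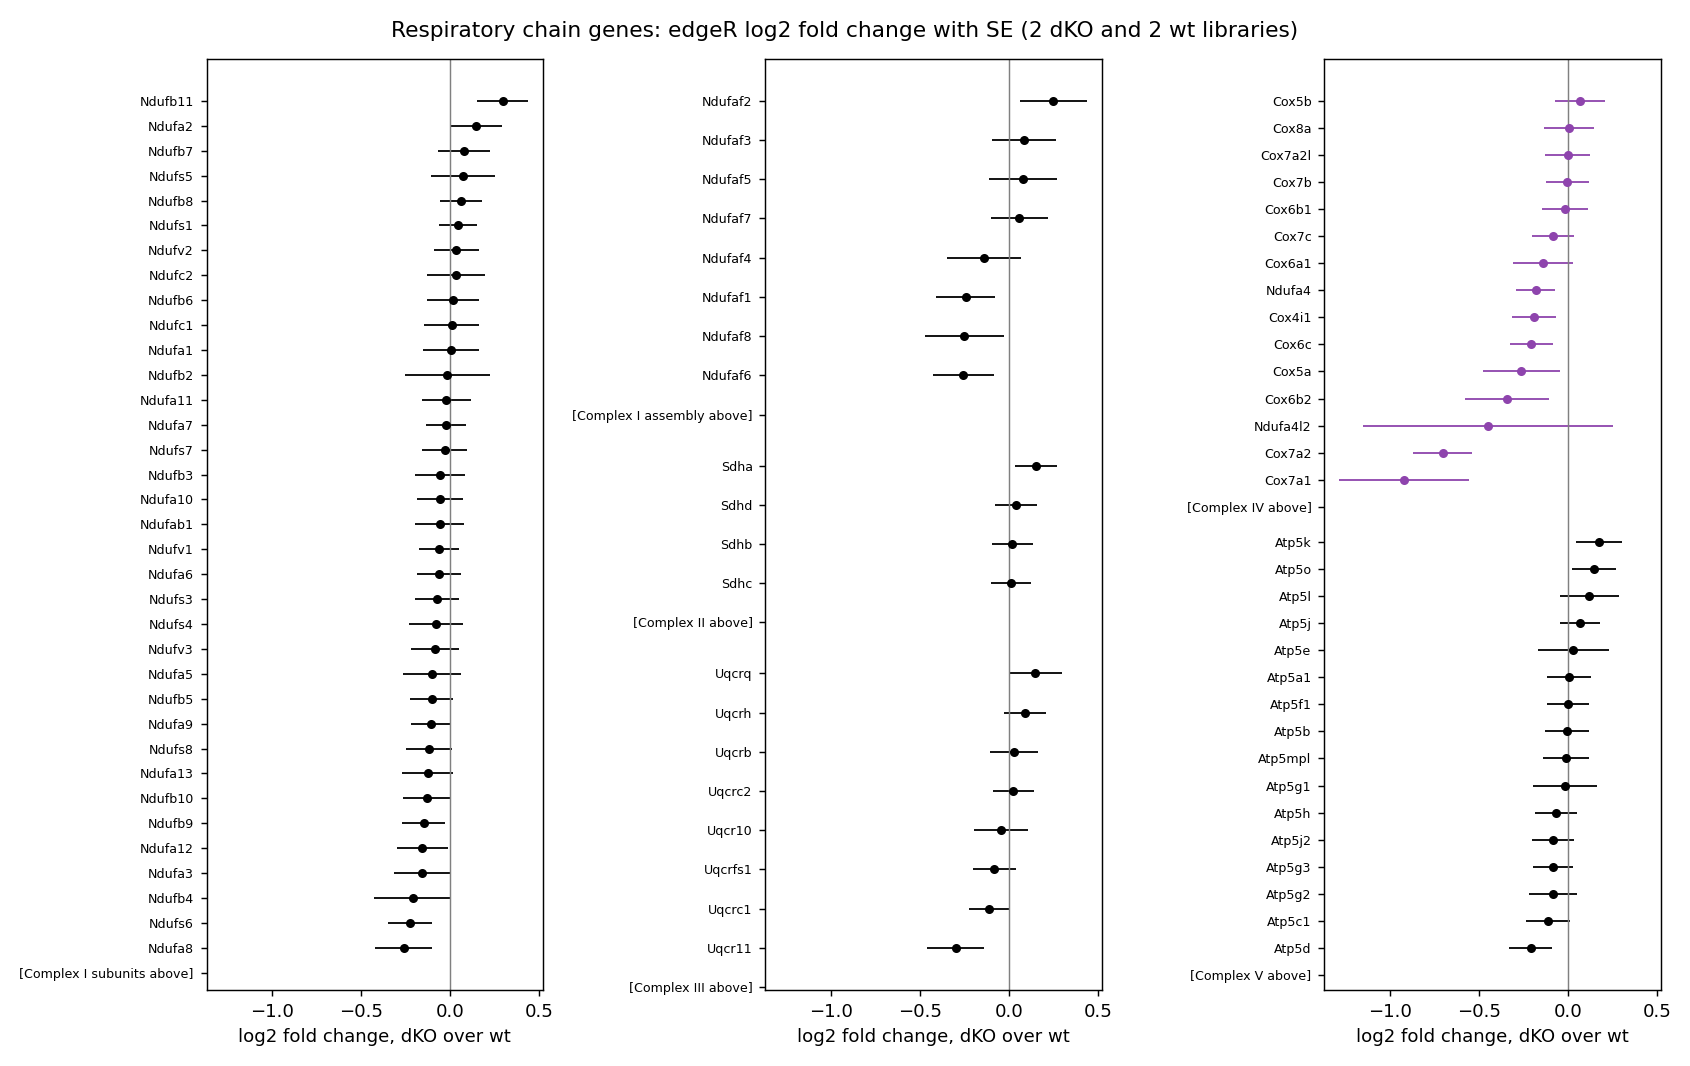
Log2 fold change (dKO over wt) with its SE for tested subunits and assembly factors, by complex, with the genes of complex IV in purple (edgeR, 2 libraries per genotype; not every gene is drawn). Cox7a1 and Cox7a2 lie at -0.92 and -0.70, and the other genes lie between -0.45 for Ndufa4l2 and 0.29 for Ndufb11.

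Complex I subunits, which oxidise NADH and pump protons, had a median log2 fold change of -0.06, with 12 values above zero and 24 below. None of the 36 passed the test, and 0 had an unadjusted p under 0.05. Without overlap, 13 of the 36 subunits were lower in dKO cells, against 16.4% of all tested genes, and 2 of the 36 were higher, against 17.2%. The summed level was 2218 and 2303 CPM in dKO libraries against 2374 and 2242 CPM in wt libraries, which overlapped (exact permutation p = 0.667). Without wt replicate 1, the highest of the libraries, the median of the class was 0.00030.

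Among the core subunits, Ndufs1 carries iron-sulfur clusters near the site of NADH oxidation and had 174 and 175 CPM in dKO libraries against 167 and 172 CPM in wt libraries (log2 fold change 0.04, SE 0.11). Ndufv1, which binds NADH and the flavin, had 165 and 166 CPM in dKO libraries against 178 and 167 CPM in wt libraries (-0.06, SE 0.11). The genotypes overlapped for neither gene, although both differences were small. Of the other core genes, Ndufs3, Ndufs7, Ndufs8 and Ndufv2 had log2 fold changes from -0.12 for Ndufs8 to 0.04 for Ndufv2, each with an SE of 0.12 to 0.13.

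The extremes of complex I were accessory subunits. Ndufb11 (chromosome X, 20192452 to 20194745), of the membrane arm, had 76.3 and 74.0 CPM in dKO libraries against 67.0 and 55.6 CPM in wt libraries (log2 fold change 0.29, SE 0.14, edgeR adjusted p = 0.907). Ndufa8 (chromosome 2, 35891846 to 35904926) had 28.8 and 33.2 CPM in dKO libraries against 34.0 and 40.2 CPM in wt libraries (-0.26, SE 0.16). Ndufs6 (chromosome 13, 73457286 to 73465990), which binds zinc, had 42.1 and 42.8 CPM in dKO libraries against 49.6 and 49.7 CPM in wt libraries (-0.23, SE 0.12). The genotypes of Ndufs6 did not overlap, and its unadjusted p in edgeR was 0.118 (adjusted p = 0.942). With 2 libraries each, the closeness of its replicates is no firm measure of their spread. Without wt replicate 2 the log2 fold change was 0.17 for Ndufb11 and -0.13 for Ndufa8. Ndufb11 and Ndufs6 have near-identical copies elsewhere in the genome, and their counts are uncertain to that extent.

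The 8 assembly factors of complex I act before the enzyme is complete and are not part of it. They split evenly, with 4 positive and 4 negative values and a median of -0.04, and 0 passed the test or had an unadjusted p under 0.05. Ndufaf2, a chaperone related in sequence to the subunit Ndufa12, had 22.6 and 21.3 CPM in dKO libraries against 20.6 and 16.4 CPM in wt libraries (log2 fold change 0.25, SE 0.19). Ndufaf6 had 15.4 and 15.2 CPM in dKO libraries against 19.1 and 17.5 CPM in wt libraries (-0.26, SE 0.17). Ndufaf7, a methyltransferase, and Ndufaf8 had values of 0.06 and -0.25 with SEs of 0.16 and 0.22. Without wt replicate 1 the median of the class was 0.08, and without wt replicate 2 the value of Ndufaf2 was 0.095.

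Complex II oxidises succinate and is shared with the tricarboxylic acid cycle. Its 4 genes were slightly positive and 0 passed the test, with a median of 0.03. Sdha (chromosome 13, 74459702 to 74487728), the flavoprotein that holds the active site, had 358 and 338 CPM in dKO libraries against 324 and 302 CPM in wt libraries (log2 fold change 0.15, SE 0.12, edgeR adjusted p = 0.969). Its genotypes did not overlap, whereas those of the other subunits did. Sdhb, the iron-sulfur subunit, and the membrane anchors Sdhc and Sdhd had log2 fold changes of 0.02, 0.01 and 0.04. The summed level was 708 and 681 CPM in dKO libraries against 667 and 639 CPM in wt libraries (exact permutation p = 0.333, the smallest possible). Without dKO replicate 2 the median was 0.07.

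Complex III, which passes electrons from ubiquinol to cytochrome c, had 4 positive and 4 negative values and a median of -0.01. None of its 8 genes passed the test or had an unadjusted p under 0.05. The core proteins Uqcrc1 and Uqcrc2 and the Rieske iron-sulfur protein Uqcrfs1 had log2 fold changes of -0.11, 0.02 and -0.08. The widest difference was in a small subunit, Uqcr11 (chromosome 10, 79865742 to 79869575), with 35.3 and 41.9 CPM in dKO libraries against 43.5 and 51.3 CPM in wt libraries (-0.30, SE 0.16, edgeR adjusted p = 0.942). Uqcrh, the hinge protein near the cytochrome c binding site, had 62.5 and 60.0 CPM in dKO libraries against 57.9 and 57.2 CPM in wt libraries (0.09, SE 0.12). Summed over the complex, dKO libraries had 886 and 914 CPM and wt libraries 923 and 917 CPM (exact permutation p = 0.333). Without wt replicate 2 the median was -0.04, and the value of Uqcr11 was -0.17. Uqcr11 has near-identical copies elsewhere in the genome, and its counts are uncertain to that extent.

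Complex V, the ATP synthase, contributed about as many CPM as all other classes together, with 5586 and 5607 CPM in dKO libraries against 5827 and 5422 CPM in wt libraries (exact permutation p = 1). Its 16 genes had 7 positive and 9 negative values with a median of -0.01 (0.045 with wt replicate 1 left out and -0.062 with wt replicate 2 left out), and 0 passed the test or had an unadjusted p under 0.05. Atp5b had 2538 and 2604 CPM in dKO libraries against 2643 and 2512 CPM in wt libraries (log2 fold change -0.0038, SE 0.12, 95% interval -0.31 to 0.30). Atp5a1 had a value of 0.01 with an interval of -0.30 to 0.31.

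The genes of complex V furthest from zero without overlap were those of the stalks and membrane part. Atp5k, subunit e, had 65.6 and 70.4 CPM in dKO libraries against 63.7 and 56.7 CPM in wt libraries (log2 fold change 0.18, SE 0.13). Atp5o, the peripheral stalk protein OSCP, had 165 and 184 CPM in dKO libraries against 163 and 152 CPM in wt libraries (0.15, SE 0.12). Atp5d, the delta subunit of the central stalk, had 88.1 and 92.2 CPM in dKO libraries against 109 and 99.1 CPM in wt libraries (-0.21, SE 0.12), and Atp5c1, the gamma subunit, had a value of -0.11. Atp5g1, Atp5g2 and Atp5g3 encode the same mature protein of the c-ring from separate genes, and had values of -0.02, -0.08 and -0.08. Near-identical copies exist for Atp5k, Atp5o, Atp5c1, Atp5g1 and Atp5g2, and the counts of these genes are uncertain to that extent.

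**Figure D3:**
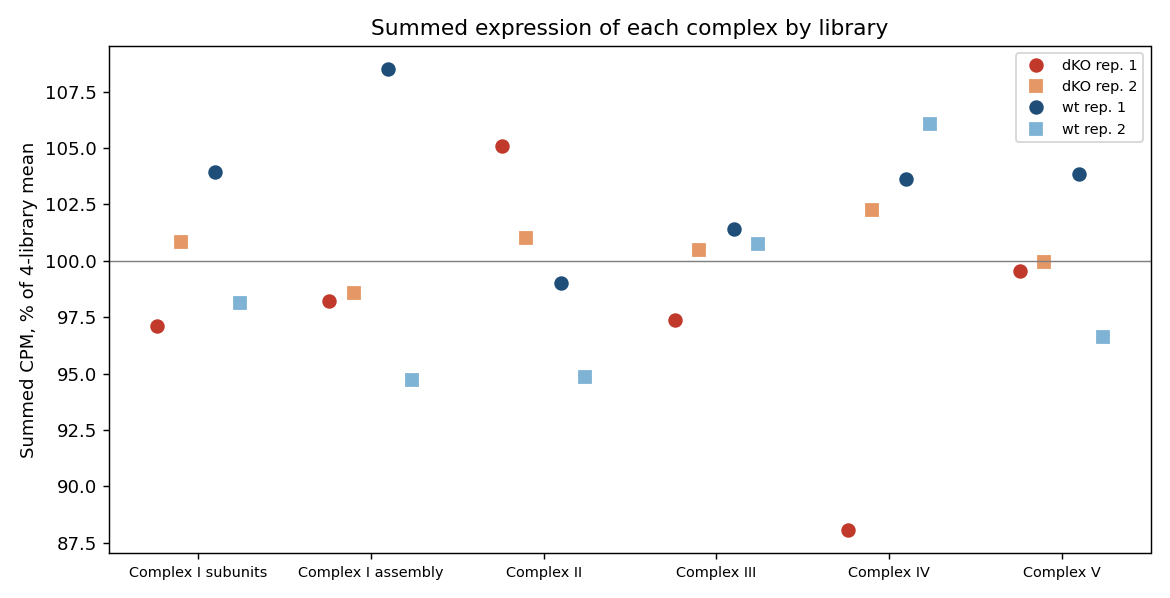
Summed CPM of each class in every library, as a percentage of the mean of the 4 libraries, with dKO replicates (red and orange) left of wt replicates (dark and light blue); the axis does not start at 0. Complex IV in dKO replicate 1 lies furthest below the mean, and the genotypes overlap for the complex I subunits, the assembly factors and complex V.

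Complex IV, cytochrome c oxidase, was the class with the most negative median, -0.18. Of its 15 tested genes 13 had negative log2 fold changes. Both dKO libraries were below both wt libraries for 6 of the 15, against 16.4% of all tested genes, and above both for 0, against 17.2%. None passed the test, and Cox7a1 and Cox7a2 were the 2 members with an unadjusted p under 0.05. Summed over 20 genes the level was 1553 and 1803 CPM in dKO libraries against 1827 and 1869 CPM in wt libraries (exact permutation p = 0.333). dKO replicate 1 was the low library, and dKO replicate 2 lay close to wt replicate 1. The median was -0.10 without dKO replicate 1 and -0.09 without wt replicate 2, and the log2 ratio of the sums, -0.14 with all libraries, was -0.25 without dKO replicate 2. Both replicates 2 were above both replicates 1 for 4 of the 15 genes, where 26.1% of all tested genes were.

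Cox7a2 and Cox7a1 encode alternative forms of 1 small membrane subunit of the enzyme, Cox7a2 being broadly expressed and Cox7a1 typical of heart and skeletal muscle. Cox7a2 (ENSMUSG00000032330, chromosome 9, 79603048 to 79607660) had 755 and 983 counts in dKO libraries against 1008 and 1399 counts in wt libraries, or 46.4 and 58.6 CPM in dKO libraries against 78.8 and 92.0 CPM in wt libraries. Replicate 2 was the higher library in both genotypes, and the genotypes did not overlap. The log2 fold change was -0.70 (SE 0.17, 95% interval -1.11 to -0.29, unadjusted p = 0.0062, edgeR adjusted p = 0.575). With dKO replicate 1 left out it was -0.54, and with dKO replicate 2 left out -0.88.

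Cox7a1 (ENSMUSG00000074218, chromosome 7, 30969190 to 30971047) was expressed at a far lower level, with 55 and 77 counts in dKO libraries against 72 and 143 counts in wt libraries. These counts correspond to 3.38 and 4.59 CPM in dKO libraries against 5.63 and 9.40 CPM in wt libraries. The log2 fold change was -0.92 (SE 0.36, 95% interval -1.82 to -0.01, unadjusted p = 0.0474, edgeR adjusted p = 0.888). Without wt replicate 2, the highest library, it was -0.50. Of 5 markers of heart and skeletal muscle 2 were tested, and Actc1 and Ckm had at most 3 counts in any library. The summed level was 3.87 and 4.95 CPM in dKO libraries against 4.85 and 6.51 CPM in wt libraries. Most of it was Myh6, with 55 and 54 counts in dKO libraries against 44 and 69 counts in wt libraries. Myh7 had 3 and 19 counts in dKO libraries against 5 and 18 in wt libraries. Tnnt2, too low to be tested, had 2 and 7 counts in dKO libraries against 7 and 11 in wt libraries. In CPM, Tnnt2 ordered the libraries as Cox7a1 did, and the other muscle markers did not. The 4 libraries had the same order by Cox7a1 as by the summed fibroblast markers, a sum of few counts. None of the tested fibroblast markers had that order alone. Thy1 was lowest in wt replicate 2 (2.17 CPM), and Col1a2 had 8 and 12 counts in dKO libraries against 6 and 45 counts in wt libraries. Col1a1 had 1.29 and 1.19 CPM in dKO libraries against 1.56 and 2.83 CPM in wt libraries, without overlap (log2 fold change -0.83, SE 0.45). All 3 tested fibroblast markers had negative log2 fold changes. The part of fibroblasts or muscle cells in the result was not tested.

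The third gene of the family, Cox7a2l, differs in role, since its protein joins complexes III and IV into supercomplexes. It had 50.3 and 46.8 CPM in dKO libraries against 48.8 and 48.4 CPM in wt libraries, a log2 fold change of -0.00085 (SE 0.13, 95% interval -0.31 to 0.31). Cox7a1 and Cox7a2 together amounted to 49.7 and 63.2 CPM in dKO libraries against 84.4 and 101 CPM in wt libraries.

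The stretches before the transcription starts of Cox7a1, Cox7a2 and Cox6a1 are shown because the first pair had the lowest fold changes among the members, while Cox6a1 is a complex IV gene with motifs of regulators of respiratory genes. Each is the 250 bases upstream of the RefSeq start in GRCm38.p6, 5′ to 3′ on the gene's strand, at chr7:30183921-30184170 on the plus strand for Cox7a1, chr9:79759854-79760103 on the minus strand for Cox7a2 and chr5:115348959-115349208 on the minus strand for Cox6a1. Capitals mark matches to the motifs described after the sequences.
Cox7a1: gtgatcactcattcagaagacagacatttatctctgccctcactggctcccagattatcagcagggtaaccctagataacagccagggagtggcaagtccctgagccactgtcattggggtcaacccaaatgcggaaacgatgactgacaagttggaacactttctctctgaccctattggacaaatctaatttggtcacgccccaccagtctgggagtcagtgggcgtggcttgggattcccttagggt
Cox7a2: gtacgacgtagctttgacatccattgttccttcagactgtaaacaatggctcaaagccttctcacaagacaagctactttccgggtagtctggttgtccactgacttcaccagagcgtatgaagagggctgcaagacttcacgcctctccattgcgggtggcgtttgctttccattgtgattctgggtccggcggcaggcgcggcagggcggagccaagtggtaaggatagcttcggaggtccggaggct
Cox6a1: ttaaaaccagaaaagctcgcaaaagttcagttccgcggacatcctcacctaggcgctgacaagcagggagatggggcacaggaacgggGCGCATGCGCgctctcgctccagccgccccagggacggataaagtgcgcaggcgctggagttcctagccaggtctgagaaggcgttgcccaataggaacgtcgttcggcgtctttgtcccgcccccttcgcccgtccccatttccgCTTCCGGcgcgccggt

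Motif letters were searched on both strands in windows from 250 bases before to 50 bases after the start, for the 74 of 93 members with a RefSeq window. GCATGCGC, the core bound by NRF1, was in 12 of 74 member windows (16.2%) and in 3.05% of 27025 windows of all genes. CCGGAAG, the core of ETS factors including GABP, was in 18 (24.3%) against 9.93%. AAGATGGCG, the core of YY1, was in 8 (10.8%) against 1.64%. At least 1 of these motifs was in 31 members (41.9%) and in 13.6% of all genes. By class this held for 12 of 32 complex I subunits, 4 of 7 assembly factors, 2 of 3 genes of complex II, 3 of 5 of complex III, 3 of 14 of complex IV and 7 of 13 of complex V. The windows of all genes include genes not expressed in these cells, and expressed genes were not compared separately. The windows of Cox7a1 and Cox7a2 held none of these letters. The same was true of most complex IV windows, among them those of Cox5b, Cox7a2l, Cox7b, Cox7c and Ndufa4. Cox6a1 was chosen for its motifs, and a link between motifs and fold changes was not tested. In Cox6a1 the NRF1 core matched on both strands within GCGCATGCGC, the matches overlapping each other, and the ETS core matched on the opposite strand as CTTCCGG.

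The other subunits of complex IV differed less. Cox4i1 (chromosome 8, 123192190 to 123198109) had 355 and 404 CPM in dKO libraries against 443 and 422 CPM in wt libraries (log2 fold change -0.19, SE 0.13, edgeR adjusted p = 0.959). Ndufa4, a peripheral subunit of the enzyme, had 114 and 119 CPM in dKO libraries against 130 and 133 CPM in wt libraries (-0.18, SE 0.11). The genotypes overlapped for neither gene, although dKO replicate 2 of Cox4i1 was close to wt replicate 2. Cox5a, a subunit on the matrix side of the enzyme, had 107 and 145 CPM in dKO libraries against 127 and 174 CPM in wt libraries (-0.26, SE 0.22), and both replicates 2 were above both replicates 1. Without dKO replicate 1 the value was -0.094 for Cox4i1 and -0.050 for Cox5a. Cox5b, a zinc-binding subunit, had 112 and 120 CPM in dKO libraries against 121 and 100 CPM in wt libraries (0.07, SE 0.14) and overlapped.

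Several complex IV subunits have a broadly expressed form and a form typical of certain tissues, and 5 of the tissue forms had at most 13 counts in any library. Cox6a1 had 155 and 206 CPM in dKO libraries against 189 and 208 CPM in wt libraries (log2 fold change -0.14, SE 0.17), while its muscle form Cox6a2 had 1 and 2 counts in dKO libraries against 1 and 0 in wt libraries. Cox8a had a value of 0.01 (SE 0.14), while the muscle form Cox8b had 0 and 1 counts in dKO libraries against 0 in both wt libraries. A count of 0 allows up to 3 counts by counting error alone. The testis form Cox8c had 3 and 8 counts in dKO libraries against 1 and 2 in wt libraries, and Cox7b2 had 2 and 3 against 1 and 6, beside a log2 fold change of -0.0020 for the broadly expressed Cox7b. Cox4i2, a form known from lung and from hypoxia, had 3 and 8 counts in dKO libraries against 13 and 4 in wt libraries. These 5 forms, Cox6a2, Cox8b, Cox8c, Cox7b2 and Cox4i2, are the members that failed the low-count filter.

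Other tissue forms passed the filter, among them Cox7a1, described earlier, Cox6b2 and Ndufa4l2. Cox6b2, a form typical of testis, had 20.4 and 28.9 CPM in dKO libraries against 26.8 and 35.6 CPM in wt libraries (log2 fold change -0.34, SE 0.24), and both replicates 2 were above both replicates 1. Without dKO replicate 1 its value was -0.11. Its broadly expressed partner Cox6b1 had 95.3 and 109 CPM in dKO libraries against 99.4 and 107 CPM in wt libraries (-0.01, SE 0.13). Ndufa4l2, known as a target of hypoxia, had 34 and 11 counts in dKO libraries against 34 and 17 in wt libraries, with a value of -0.45 and an SE of 0.70 that leaves its direction undetermined.

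**Figure D4:**
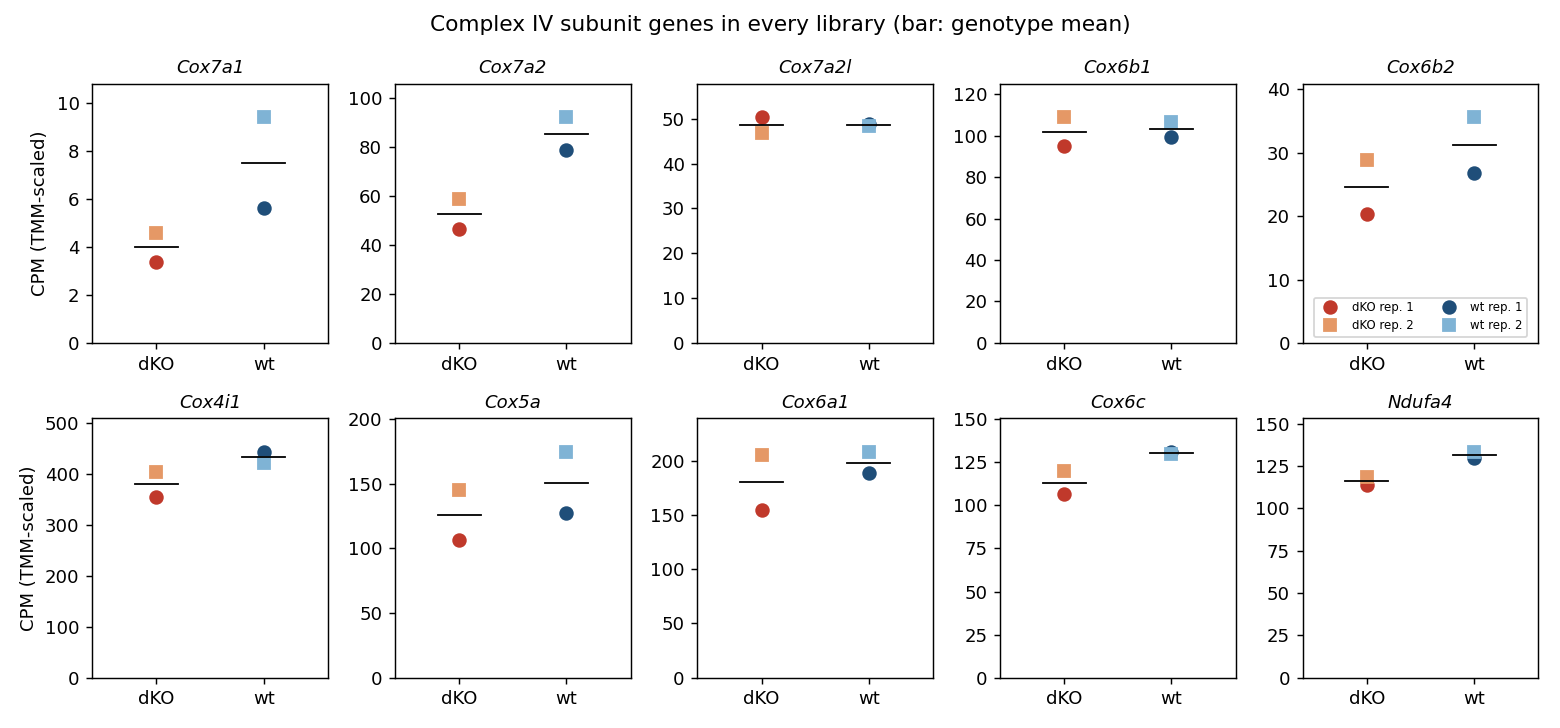
CPM of 10 complex IV genes in each library, dKO left and wt right, with circles for replicate 1, squares for replicate 2 and a bar at the mean of each genotype; each axis starts at 0. Both dKO libraries lie below both wt libraries for Cox7a1, Cox7a2, Cox4i1, Cox6c and Ndufa4, and the genotypes overlap for Cox7a2l, Cox6b1, Cox6b2, Cox5a and Cox6a1.

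Near-identical copies of members, mostly processed pseudogenes, were sought because counting can divide or drop reads between a gene and its copy. A copy was a gene with at least 95% identity over at least 100 bases that is either annotated as a pseudogene or aligned over at least 50% of the member's transcript. Such a copy was found for 23 members, and 35 copies of 21 members had a row. Of these, 32 had at most 20 counts over the 4 libraries and 14 had 0. The 3 others are copies of Ndufa12, Cox7a2l and Ndufs5, and are described after their values were seen.

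Gm15920, a processed pseudogene of the complex I accessory subunit Ndufa12, had 0 counts in both dKO libraries against 32 and 28 counts in wt libraries. With the group's 0 counts set to a floor of 3 this is at least 23.6-fold lower in dKO cells, and its edgeR adjusted p was 0.244. Ndufa12 itself (chromosome 10, 93661700 to 93684188) had 473 and 528 counts in dKO libraries against 449 and 492 in wt libraries, with a log2 fold change of -0.16 (SE 0.14). The copy matched 400 of 402 aligned coding bases of Ndufa12. The differences are A135G and T414C, given as the Ndufa12 base, the position from 1 at the A of its start codon, and the base of the copy. The windows around them are shown because only reads across these bases tell the gene from its copy within the aligned coding part, and capitals mark the differing base. Sequences are 5′ to 3′ on the gene's strand from GENCODE M21 transcripts in GRCm38, where Ndufa12 lies at chr10:94198720-94221443 and Gm15920 at chr5:130188395-130188796, both on the plus strand.
Ndufa12 bases 120 to 150: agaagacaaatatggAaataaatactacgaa
Gm15920 at the same bases: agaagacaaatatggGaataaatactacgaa
Ndufa12 bases 399 to 429: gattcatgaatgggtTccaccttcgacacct
Gm15920 at the same bases: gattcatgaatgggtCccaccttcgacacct

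Gm6969, a copy of Cox7a2l, had 82 and 70 counts in dKO libraries against 127 and 164 in wt libraries (log2 fold change -1.17, SE 0.25, edgeR adjusted p = 0.485), while Cox7a2l itself stood at -0.00085. BC002163, a copy of Ndufs5, had 154 and 149 counts in dKO libraries against 109 and 150 in wt libraries (-0.0042, SE 0.22). Without the members that have a near-identical copy, the median log2 fold change was -0.03 over all members and -0.19 over complex IV.

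Genes of the same pathway outside the symbol rule were listed separately. The subunits encoded by mitochondrial DNA had 4 positive and 8 negative values among 12 tested and a median of -0.05, and none passed the test or had an unadjusted p under 0.05. Their summed level was 31236 and 37751 CPM in dKO libraries against 32391 and 36986 CPM in wt libraries (exact permutation p = 1), with replicate 2 the higher library in both genotypes. The most abundant was mt-Co1, the catalytic subunit of complex IV, with means of 11200 CPM in dKO cells and 10757 CPM in wt cells.

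Electron carriers, ATP carriers and related genes, 13 of them tested, had 4 positive and 9 negative values and a median of -0.06, and none passed the test. The phosphate carrier Slc25a3 and the ADP/ATP carrier Slc25a5, the most abundant of the list, had log2 fold changes of -0.06 and -0.18 with SEs of 0.11 and 0.14. A pair of genes, named after their values were seen, had an unadjusted p under 0.05, against 5.57% of all tested genes. Cyct, the testis form of cytochrome c, had 14.6 and 16.0 CPM in dKO libraries against 2.42 and 3.02 CPM in wt libraries (2.48, SE 0.25, edgeR adjusted p = 0.0838). The somatic form Cycs had 61.7 and 57.6 CPM in dKO libraries against 65.3 and 56.4 CPM in wt libraries (-0.03, SE 0.14). Slc25a4, the ADP/ATP carrier typical of heart and muscle, had 77.4 and 69.4 CPM in dKO libraries against 135 and 126 CPM in wt libraries (-0.83, SE 0.12, edgeR adjusted p = 0.252). Neither gene's genotypes overlapped, and neither passed the threshold.

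Assembly factors outside the symbol rule, for complex I as well as for the other complexes, had 11 positive and 23 negative values and a median of -0.07. Of the 34 tested, 0 were called and 1 had an unadjusted p under 0.05, against 5.57% of all tested genes. Transcriptional regulators of nuclear mitochondrial genes were listed together with Tfam, Tfb1m, Tfb2m and Polrmt, which act on mitochondrial DNA or RNA. This list had 12 positive and 3 negative values among 15 tested and a median of 0.05. Of these genes 0 were called and 2 had an unadjusted p under 0.05, where 5.57% of all tested genes had. The 2 were Ppargc1b, a coactivator of respiratory genes, and Tfb1m, which methylates mitochondrial ribosomal RNA, named after their values were seen. Ppargc1b had 3.81 and 5.25 CPM in dKO libraries against 2.11 and 2.04 CPM in wt libraries (log2 fold change 1.12, SE 0.34, edgeR adjusted p = 0.723). Tfb1m had 10.5 and 11.8 CPM in dKO libraries against 16.0 and 16.6 CPM in wt libraries (-0.55, SE 0.19, edgeR adjusted p = 0.794). Ppargc1a, the coactivator best known from heart and muscle, had 0 counts in all 4 libraries.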

How the data were processed

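The authors deposited raw read counts per Ensembl gene for 4 libraries, and each row's position. Per the submitters' processing notes, which state no roles, TopHat2 2.0.6, TopHat and HTSeq were used. Build, annotation and strand setting: not given in the sources used here. Gene positions follow the table's build. Overlapping genes and near-identical copies are uncertain. GENCODE M21, matched by gene ID, gave symbols to 32938 of 37991 rows, and lengths (longest protein-coding transcript). Promoter windows are from RefSeq (GRCm38.p6). Copies were found with blastn 2.17.0+.

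Genes were filtered with filterByExpr, leaving 14027, scaled by TMM (factors 0.976 to 1.02) and fitted in edgeR 4.0.16 under R 4.3.3, where a robust quasi-likelihood test had genotype as the only term, Benjamini-Hochberg adjustment over these genes and a threshold of 0.05. Log2 fold changes are dKO over wt. CPM are counts scaled to library size with TMM factors. P-values from edgeR rest on the spread between these samples, moderated over genes, and floors cover counting error only. In the main fit that spread includes any difference between replicate numbers. Sums of CPM were compared with exact two-sided permutation tests, whose p counts reassignments of the 4 libraries. Alternatives were other scalings and filters, a replicate block, each library left out, DESeq2 1.42.0 and limma-voom (limma 3.58.1). The fit was tested on simulated counts.

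Members and lists were chosen with earlier results of these data known. Named members were those past the threshold, in each class up to 2 highest and 2 lowest log2 fold changes among genes without overlap, the highest and lowest level per kb, the core subunits, complex II and the isoform families. Of other lists, up to 2 of the highest CPM were named. Some genes that these rules allow are not reported here.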

Additional observations from a re-analysis of the deposited data

How the results depend on the processing

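No member was called in 10 of the 11 alternatives. The exception was the fit with the replicate number as a block, which called 2 members, Cox7a1 (log2 fold change -0.90, edgeR adjusted p = 0.0103) and Cox7a2 (-0.71, edgeR adjusted p = 3.5e-05), among 1299 of all tested genes (9.26%). Over the other alternatives the adjusted p ranged from 0.107 to 0.9996 for Cox7a2 and from 0.537 to 0.9998 for Cox7a1. The labels do not say that a number marks a shared day or batch. Deviations of same-numbered libraries from their genotype means had a correlation of 0.65 across genes, a hint from the data and not from the design.

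The count over all genes, 12, was 80 with no low-count filter, 96 with the DESeq2 Wald test and 5 with limma-voom. Leaving out 1 library gave 18 to 27 calls, with 19 when wt replicate 1 was dropped and 27 when wt replicate 2 was. With 1 library left out, the median log2 fold change ranged from -0.070 to 0.0097 for all members, -0.095 to 0.00030 for complex I, -0.12 to 0.081 for its assembly factors, 0.027 to 0.069 for complex II, -0.039 to 0.010 for complex III, -0.24 to -0.093 for complex IV and -0.062 to 0.045 for complex V. The log2 ratio of sums ranged from -0.14 to 0.055 for the assembly factors, -0.25 to -0.036 for complex IV and -0.058 to 0.046 for complex V. The cause of these shifts was not tested. With the union of exons as length, 6 of the 10 highest members were shared, and with the median transcript length, chosen after seeing the data, 7.

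Of 49 named genes, 21 had the other sign under some alternative (41 of 539 values, 34 of them with 1 library left out), and the largest of these in the main test was 0.45 on the log2 scale, for Ndufa4l2. Its 11 to 34 counts per library left a 95% interval of -2.18 to 1.29.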

Other observations

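Genes of the tricarboxylic acid cycle and of pyruvate dehydrogenase, which feed electrons to the chain, were measured beside it. All 16 were tested, 0 were called in edgeR and 0 had an unadjusted p under 0.05, with 6 positive and 10 negative log2 fold changes and a median of -0.01. Their summed level was 2710 and 2497 CPM in dKO libraries against 2691 and 2621 CPM in wt libraries, which overlapped (exact permutation p = 1). Cs, citrate synthase, had means of 359 CPM in dKO cells and 372 CPM in wt cells.

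Members that followed the replicate number were counted as well. Both replicates 2 were above both replicates 1 for 9 of 88 members and below them for 20, where 26.1% and 26.2% of all tested genes were.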
